A study of Mus musculus with 72 samples.

Results

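The liver and the heart of mice without the circadian clock gene *Bmal1* (symbol *Arntl*) were compared by RNA-Seq, gene by gene, to describe which genes set the liver apart. The comparison used 15 of the 72 samples of the series, chosen by tissue and age: all 8 liver libraries and 7 of the 8 heart libraries at 40 weeks. The eighth heart library, KO heart replicate 2, was left out by the same rule. It holds liver transcripts at a high level, and its values are given beside the results they touch. The wider study asked what returning *Bmal1* to muscle alone does to male global *Bmal1*-KO mice, and these tissues come from its older cohort. Of the liver libraries, 4 came from *Bmal1*-KO mice and 4 from KO+AAV mice, which are *Bmal1*-KO mice that received as pups an AAV9 vector with HA-tagged *Bmal1* cDNA under the CK6 promoter, a muscle-specific promoter. The heart comparison held 3 KO and 4 KO+AAV libraries. All the mice were male, 40 weeks old, and *Bmal1*-null in their own genome, and tissue was collected at ZT1, early in the light phase. No WT liver or heart library was among the samples, so that nothing here measures the effect of losing *Bmal1*. The labels give no mouse for a library, and *P* values measure only the spread between these libraries.

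Hepatocytes make most of the protein of blood plasma, turn ammonia into urea, make glucose and ketone bodies for other organs, and make bile acids from cholesterol. Their genes are switched on by a network of liver-enriched transcription factors, among them the HNF4, FOXA, and C/EBP families. Cardiomyocytes instead devote much of their mRNA to the contractile apparatus, to calcium handling, and to mitochondria that burn fatty acids and ketone bodies, so many enzymes come in a liver form and a muscle form encoded by separate genes.

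The deposited values gave back whole reads for every gene. Reads on genes numbered 37124342 to 50620493 per liver library (median 42058849) and 36903079 to 48641965 per heart library (median 44046171). Levels are given as counts per 1000000 reads on genes (CPM), and differences as log2(CPM + 1) in liver minus heart, a scale that understates the difference of weakly expressed genes. Mitochondrially encoded genes took 3.45% to 4.19% of the reads in livers and 16.4% to 24.2% in hearts, which lowers the CPM of all other heart genes. Of 13691 genes tested with limma, 11692 (85.4%) differed at an adjusted *P* under 0.05. A gene was therefore called only when it also differed by 1 or more on the log2 scale. By that rule 20.2% of the genes tested were higher in liver (2759 genes) and 27.7% were lower (3790 genes), and the median over all genes was -0.12. Every liver was above every heart in 2675 of the 2759, and below every heart in 3731 of the 3790. A lack of overlap was therefore common among called genes. Scaling by TMM moved that median to 0.04, and leaving out the mitochondrially encoded genes moved it to -0.41. The counts higher and lower were 3121 and 3441 with TMM, and 2360 and 4700 without the mitochondrially encoded genes, so the shares over all genes depend on the scaling. The shares of 20.2% and 27.7% are the background for each list count below. Only genes with a mean above 1 CPM were tested, and many members of the liver and heart lists reach that mean through 1 tissue alone. Such members could be called in only 1 direction, so the counts of those lists are descriptions and not tests.

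The 3 liver markers stood far above heart in every library. *Alb*, which encodes albumin, lay at 22567 to 28456 CPM (median 23229) in livers and 3.56 to 4.86 CPM (median 4.56) in the 7 hearts. *Apoa1*, the main protein of high-density lipoprotein, lay at 7467 to 9244 CPM (median 8150.3) against 0.65 to 1.14 CPM (median 0.921), and *Ttr*, the carrier of thyroxine, lay at 2951 to 4694 CPM (median 3414) against 0.5 to 2.42 CPM (median 0.623). The lowest liver was above the highest heart by orders of magnitude for all 3 genes, and the livers differed little from each other. The log2 differences were 12.16 (SE 0.08) for *Alb*, 12.08 (SE 0.07) for *Apoa1*, and 10.85 (SE 0.15) for *Ttr*. In an exact permutation test (two-sided) each gave *P* = 0.000155, the smallest value that 8 livers against 7 hearts allow. The 3 genes were picked as liver markers and the groups were set by tissue. This outcome was therefore fixed in advance and is no added evidence. KO heart replicate 2 held 17396 CPM of *Alb*, 3943 CPM of *Apoa1*, and 2105 CPM of *Ttr*, so this library labelled heart overlapped no other heart in any of the 3. With it kept, the log2 differences in the permutation test were 10.69, 10.70, and 9.61.

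The other tissues of the series held traces of *Alb*, at 6.34 to 37.7 CPM in the 8 lung libraries, 14.6 to 86.2 CPM in the 8 white fat libraries, and 0 to 20.9 CPM in 34 gastrocnemius libraries of the same table. *Apoa1* and *Ttr* reached at most 34.7 and 18.7 CPM in these tissues, both in white fat. All of these values were far below every liver. *Arntl* transcripts themselves were counted in both tissues, at 13.6, 14.9, 15.9, and 16.2 CPM in the KO livers and 22.9, 28.6, 18.9, and 20.4 CPM in the KO+AAV livers. The hearts lay at 11.3 to 21.2 CPM (median 16.9), overlapping the livers. The liver minus heart difference of *Arntl* in limma was 0.25 (SE 0.11), below the 1 needed for a call. It was -0.03 in limma when the mitochondrially encoded genes were left out of the totals. In the exact permutation test the difference of *Arntl* was 0.23 (*P* = 0.184), and 0.39 with TMM scaling (*P* = 0.0213). Each KO+AAV liver was above each KO liver, by a log2 difference of 0.54 (exact permutation test, *P* = 0.0286, the smallest that 4 against 4 allow). Gene counts do not separate vector transcripts from transcripts of the disrupted gene.

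**Figure D1:**
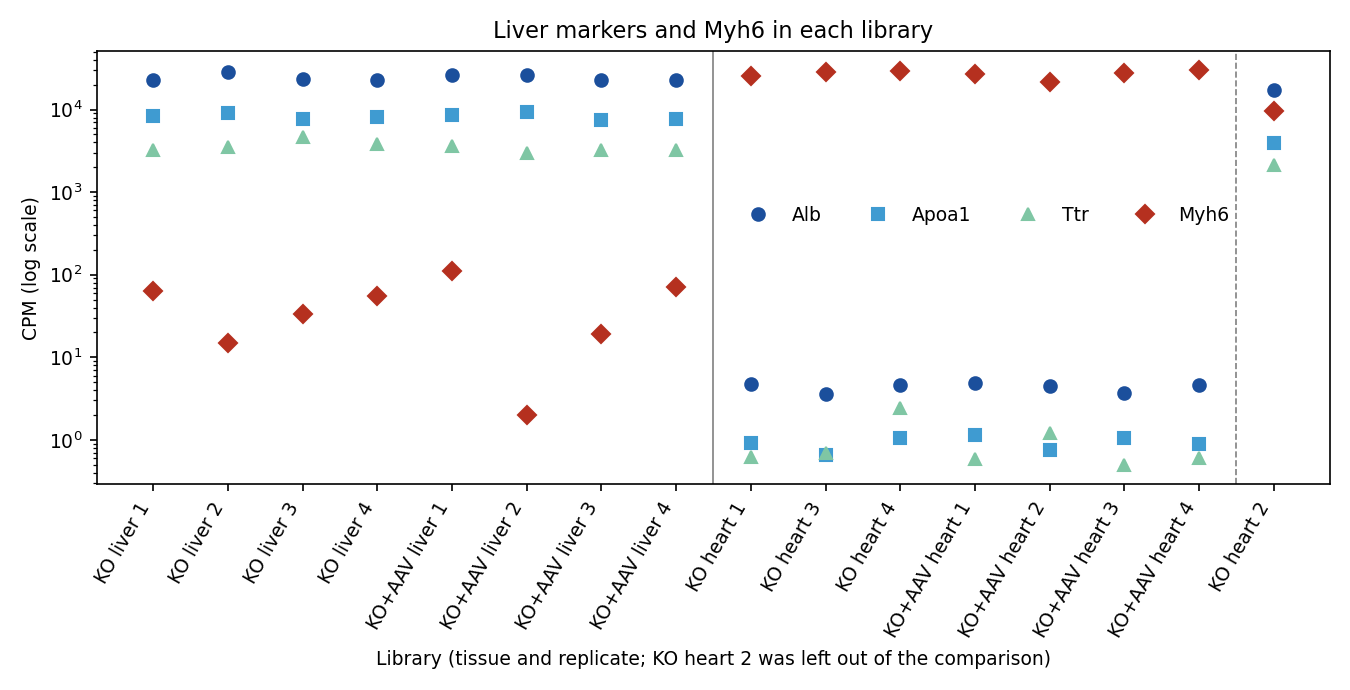
CPM (log axis) of *Alb*, *Apoa1*, *Ttr*, and the cardiac myosin gene *Myh6* in each of the 16 liver and heart libraries, 1 point per gene and library. The 8 livers hold 22567 to 28456 CPM of *Alb* and the 7 hearts 3.56 to 4.86 CPM, while KO heart replicate 2, which was not used in the comparison, holds 17396 CPM.

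The 10 genes with the largest difference toward liver were *Bhmt*, *Alb*, *Cps1*, *Apoa1*, *Mat1a*, *Gc*, *Cyp2c29*, *Serpina3k*, *Apoa2*, and *Mug1*, with log2 differences from 13.13 down to 11.53. *Bhmt*, which encodes the enzyme that remethylates homocysteine with betaine, led with 8338 to 16121 CPM (median 11882) in livers against 0.136 to 0.451 CPM (median 0.247) in hearts (log2 difference 13.13, SE 0.08, adjusted *P* = 4.63e-22). *Mat1a*, the liver enzyme that makes *S*-adenosylmethionine, lay at 3617 to 9063 CPM (median 4436) against 0.125 to 0.535 CPM (median 0.381), and it uses the methionine that *Bhmt* makes. *Cps1*, the entry enzyme of the urea cycle, lay at 4543 to 8044 CPM (median 5299) against 0.144 to 0.294 CPM (median 0.214). *Gc*, the vitamin D-binding protein, varied least of these across livers, at 6194 to 6897 CPM (median 6579.9). *Serpina3k* and *Cyp2c29* belong to families of near-identical genes whose reads could be split in counting, and their values are uncertain to that extent.

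Genes were compared with each other by CPM per kilobase of exon, rescaled to a total of 1000000 in each library. By this measure the livers were led by *Apoa2*, the second protein of high-density lipoprotein, at 25388 to 37162 (median 28919). *Alb* followed at 24958 to 31534 (median 25928), and their ranges overlapped. *Apoe* had a median of 21948 and *Apoa1* one of 17232. Of the 15 genes highest per exon length, 4 were mitochondrially encoded, led by *mt-Co1* with a median of 24853. The others that encode plasma proteins or a urinary protein were *Serpina3k*, *Gc*, *Ahsg*, *Trf*, *Mup3*, and *Serpina1c*, with medians from 8693 to 9943. The remaining one, Gm23935, is annotated as a miRNA gene of 57 exon bases. Exons of *Trf* share 63.5% of their bases with Gm20425, and no source used here states whether counting used strand.

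The 10 genes with the largest difference toward heart were *Mb*, *Myh6*, *Tnnt2*, *Actc1*, *Pln*, *Myl3*, *Myl2*, *Mybpc3*, *Ttn*, and *Fabp3*, with log2 differences from -9.79 to -9.39. *Mb*, the muscle oxygen store myoglobin, lay at 10114 to 13498 CPM (median 12771) in hearts against 1.33 to 41.8 CPM (median 14.9) in livers. *Myh6*, the adult ventricular myosin heavy chain of the mouse, lay at 21807 to 29716 CPM (median 27403) against 2.01 to 112 CPM (median 44.7). *Fabp3*, a fatty acid carrier of muscle, lay at 2186 to 3576 CPM (median 3002) against 0.261 to 10.0 CPM (median 3.95). The livers spread far more widely in these genes than in their own markers, and no liver reached any heart. *Mb* and *Pln* share 31.9% and 64.7% of their exon bases with other annotated genes.

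Promoter windows of RefSeq genes (build GRCm38.p6, the 250 bases before each start) were searched on both strands for short binding motifs. The C/EBP motif, TTGCNNAA, was present in 27 of 91 windows of the 100 genes most shifted toward liver (29.7%), 8 of 97 windows of the 100 most shifted toward heart (8.25%), and 9.56% of all 32851 windows. Only 79 and 75 of the 100 genes had a window. The forkhead core, TGTTTAC, was in 5.49%, 1.03%, and 3.17%. An HNF4 element, CAAAGTCCA, was in 2 windows of the liver genes (2.2%), none of the 97 of the heart genes, and 0.384% of all windows. The clock E-box, CACGTG, to which BMAL1 and CLOCK bind, was in 5.49%, 4.12%, and 6.02%. The GATA core, AGATAAG, was in 5.49%, 4.12%, and 2.74%, and the MEF2 core, TATTTNTAG, was in 2.2%, 3.09%, and 1.41%. Both sets of 100 genes were drawn from the tested genes, which have 13164 windows. In those windows the shares were 8.07% for C/EBP, 2.53% for the forkhead core, and 0.395% for the HNF4 element. The clock E-box was in 8.01% of them, the GATA core in 1.87%, and the MEF2 core in 0.965%. A match is a description of the letters only. The last 120 bases before the start are shown for 6 of the liver genes whose C/EBP motif lies within them, picked for well-known products, 5′ to 3′ on the strand of the gene, with the motif in capitals on either strand. They are *Alb*, *Apob*, which builds lipoproteins, *Fgb*, a fibrinogen chain, *Ahsg*, the plasma protein fetuin-A, *Itih2*, a heavy chain of inter-alpha-trypsin inhibitor, and *Slc10a1*, the bile acid importer NTCP.
Alb (chr5:90460750-90460869, plus strand): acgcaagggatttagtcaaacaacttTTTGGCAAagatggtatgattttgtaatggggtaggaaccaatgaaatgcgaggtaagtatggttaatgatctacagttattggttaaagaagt
Apob (chr12:7977557-7977676, plus strand): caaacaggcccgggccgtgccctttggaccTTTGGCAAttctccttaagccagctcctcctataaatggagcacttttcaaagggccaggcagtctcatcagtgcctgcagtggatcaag
Fgb (chr3:83049864-83049983, minus strand): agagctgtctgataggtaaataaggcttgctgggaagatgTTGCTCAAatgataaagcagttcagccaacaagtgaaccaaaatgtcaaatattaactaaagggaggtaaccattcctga
Ahsg (chr16:22891895-22892014, plus strand): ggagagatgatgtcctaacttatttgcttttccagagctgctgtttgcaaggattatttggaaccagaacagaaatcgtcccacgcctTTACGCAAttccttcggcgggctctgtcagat
Itih2 (chr2:10130684-10130803, minus strand): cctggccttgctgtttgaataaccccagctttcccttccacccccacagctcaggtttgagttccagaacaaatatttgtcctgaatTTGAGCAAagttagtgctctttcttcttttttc
Slc10a1 (chr12:80968080-80968199, minus strand): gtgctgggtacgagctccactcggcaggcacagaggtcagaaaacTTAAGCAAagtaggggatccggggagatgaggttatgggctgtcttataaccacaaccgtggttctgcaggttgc

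For contrast, the same stretch is shown for the heart genes with a MEF2 core: *Casq2*, the calcium buffer of the sarcoplasmic reticulum, *Xirp2*, an actin-binding protein of the intercalated disc, and *Trim63*, the muscle ubiquitin ligase MuRF1. Capitals mark the MEF2 core on either strand. None of the 9 stretches has its capitals overlapping another of the motifs searched.
Casq2 (chr3:102086295-102086414, plus strand): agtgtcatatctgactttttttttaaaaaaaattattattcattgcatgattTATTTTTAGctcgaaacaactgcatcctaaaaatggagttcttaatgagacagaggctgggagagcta
Xirp2 (chr2:67445882-67446001, plus strand): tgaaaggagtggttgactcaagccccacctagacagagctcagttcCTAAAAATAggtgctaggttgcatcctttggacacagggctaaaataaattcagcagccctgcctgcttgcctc
Trim63 (chr4:134315000-134315119, plus strand): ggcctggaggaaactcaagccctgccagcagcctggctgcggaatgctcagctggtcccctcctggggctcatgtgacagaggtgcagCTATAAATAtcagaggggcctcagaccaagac

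Nearly all genes of secreted plasma proteins that were tested were higher in liver. All 13 plasma carrier genes tested were called higher (background 20.2%), with a median log2 difference of 10.15 against -0.12 over all genes. The list includes the markers *Alb* and *Ttr*, whose outcome was fixed in advance. The smallest difference was that of *Cp*, the copper-carrying ferroxidase, at 1714 to 2453 CPM (median 2025) in livers against 156 to 232 CPM (median 176) in hearts (log2 difference 3.42, SE 0.10). *Trf*, which carries iron, lay at 9765 to 13513 CPM (median 11359) against 25.9 to 105 CPM (median 37.2). *Rbp4*, the retinol carrier, and *Ambp*, the precursor of bikunin, lay below 1 CPM in the median heart, with log2 differences of 10.69 and 10.37. Every liver was above every heart for each of these genes, as it was for 2675 of the 2759 genes called higher. With KO heart replicate 2 kept, all 13 were still called, with a median of 8.99.

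All 18 genes of apolipoproteins and lipoprotein assembly were called higher, with a median of 7.86. This list includes the marker *Apoa1*, whose outcome was fixed in advance. *Apob*, the structural protein of very-low-density lipoprotein, lay at 3907 to 6747 CPM (median 5796) in livers against 0.998 to 1.5 CPM (median 1.13) in hearts (log2 difference 11.30, SE 0.11). *Mttp*, which loads lipid onto it, lay at 360.3 to 466 CPM (median 397) against 9.88 to 30.4 CPM (median 18.4), the second smallest difference of the list at 4.45. *Apoe* was plentiful in livers, at 15405 to 18865 CPM (median 17919), and not absent from hearts, at 138 to 559 CPM (median 186). *Apoc2*, the activator of lipoprotein lipase, was counted in every liver at 3.85 to 6.52 CPM and had 0 reads in all 7 hearts. A count of 0 allows up to 3 reads, or 0.0593 to 0.0813 CPM at the depth of these libraries, for counting error only.

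All 23 genes of coagulation were called higher, with a median of 8.92. *F2*, prothrombin, lay at 2264 to 2493 CPM (median 2372) in livers against 0.103 to 0.38 CPM (median 0.244) in hearts, and *Plg*, plasminogen, at 3413 to 3871 CPM (median 3707) against 0.269 to 0.588 CPM (median 0.428). The fibrinogen chains *Fga*, *Fgb*, and *Fgg* had liver medians of 5464, 5479, and 3990.3 CPM, with log2 differences of 10.71, 10.56, and 10.60. *Pros1*, protein S, differed least, at 53 to 76.4 CPM (median 69.7) against 16.4 to 35.5 CPM (median 18.6) (log2 difference 1.58, SE 0.15). It is made in several cell types, and its lowest liver was still above its highest heart.

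All 19 genes tested of the complement and lectin pathway were called higher, with a median of 7.57. *C3*, the central component, lay at 9367 to 15049.6 CPM (median 12385) in livers against 128 to 354 CPM (median 231) in hearts (log2 difference 5.84, SE 0.23). *Hc* lay at 918 to 1487 CPM (median 1209) against 0.0896 to 0.545 CPM (median 0.325), and *C9*, which forms the membrane pore, at 516 to 959 CPM (median 765) against 0.0227 to 0.113 CPM (median 0.0672). *Cfb*, factor B, was low in both tissues, with a liver median of 2.47 CPM, and shares 79.5% of its exon bases with another gene.

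Of the acute phase genes, 17 of 18 tested were called higher, with a median of 6.94. *Itih3* and *Itih4*, inter-alpha-trypsin inhibitor chains, had liver medians of 1736 and 1804 CPM and log2 differences of 9.93 and 8.67. The serum amyloid genes *Saa1* and *Saa2*, which rise by orders of magnitude in inflammation, were low, at 4.95 to 18.9 CPM and 3.01 to 11.4 CPM in livers. *Lcn2*, the iron-chelating lipocalin, was the one not called, at 2.29 to 36.8 CPM in livers against 0.751 to 15.9 CPM in hearts. All 14 hepatokine genes were called higher, with a median of 6.55. *Igf1*, the growth factor of the growth hormone axis, lay at 368 to 554 CPM (median 468) against 5.27 to 25.8 CPM (median 8.53) (log2 difference 5.39, SE 0.28). *Fgf21*, a fasting hormone, lay at only 0.227 to 19.5 CPM in livers and 0.0227 to 0.19 CPM in hearts, and its log2 difference of 1.15 was the smallest of the list. It was not called in the KO libraries alone (limma, adjusted *P* = 0.0667).

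**Figure D2:**
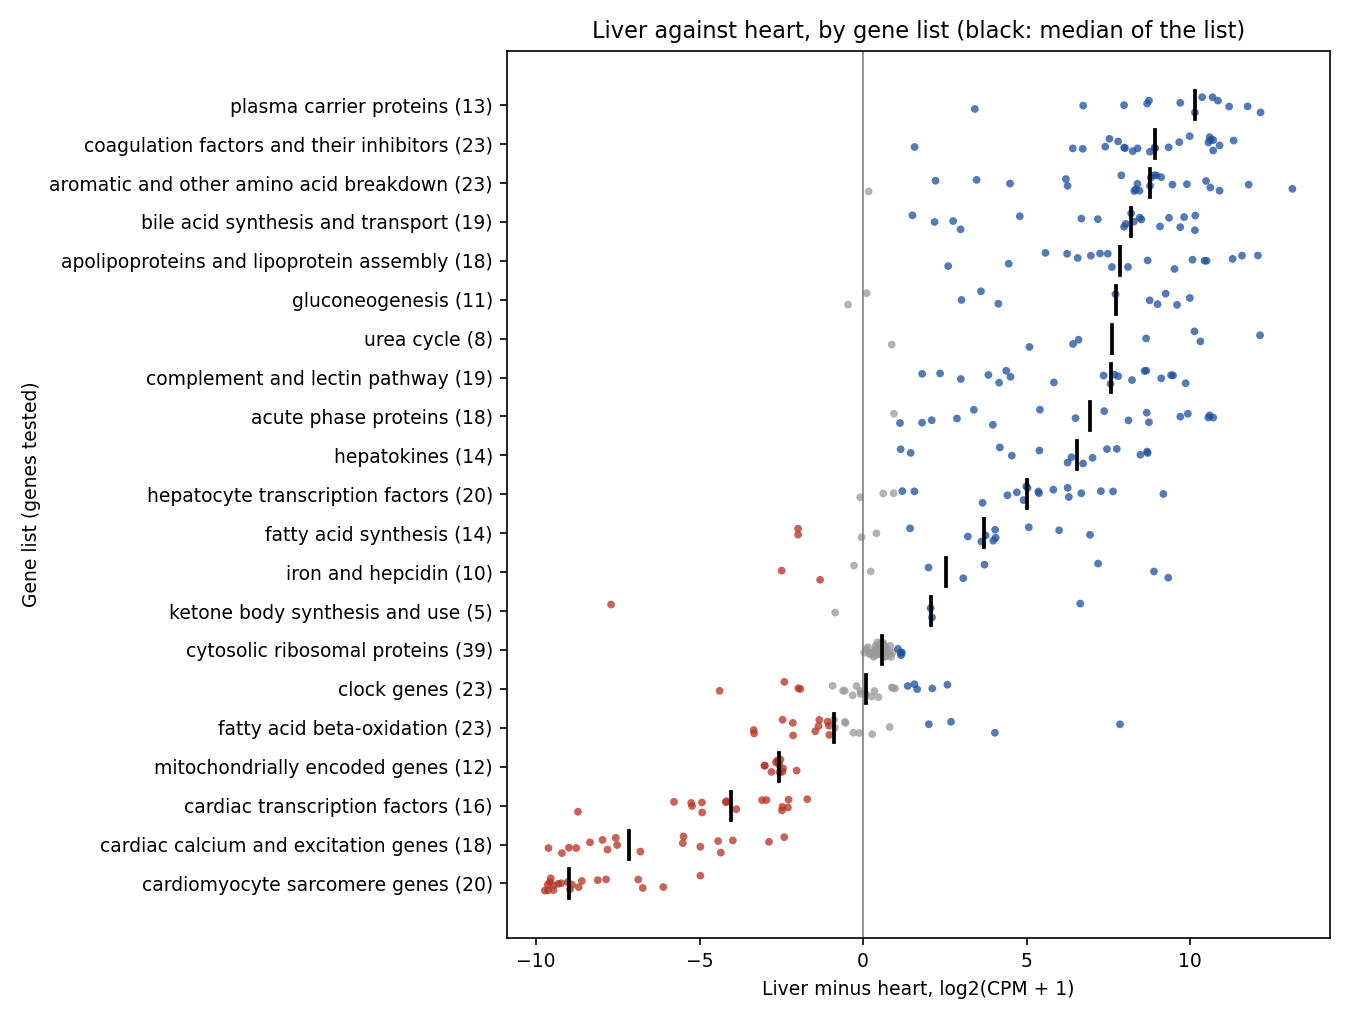
Log2 difference, liver minus heart, of each gene tested in each gene list, 1 point per gene. The number tested stands beside each list, and a black line marks its median. Blue points were called higher in liver, red points lower, and grey points neither, and the lists of secreted plasma proteins lie wholly to the right while all 20 sarcomere genes lie to the left.

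Genes of the pathways that hepatocytes run for the whole body were also higher in liver. In the urea cycle 7 of 8 were called higher, with a median of 7.62. *Ass1*, which makes argininosuccinate, lay at 2363 to 4814 CPM (median 3980.0) in livers against 1.33 to 3.43 CPM (median 1.75) in hearts, and *Arg1*, which releases urea, at 879 to 2345 CPM (median 1495) against 0.136 to 0.545 CPM (median 0.217). The exception was *Slc25a13*, the aspartate-glutamate carrier citrin, at 211 to 291 CPM (median 240.0) against 86.3 to 166 CPM (median 144) (log2 difference 0.88, SE 0.12), although TMM scaling brought it to 1.05 and it was then called. In gluconeogenesis 9 of 11 were called higher, with a median of 7.72. *G6pc*, whose product releases free glucose, lay at 113 to 1545 CPM (median 703) in livers, and the highest heart held 0.0238 CPM. *Pck1*, the enzyme that makes phosphoenolpyruvate, lay at 1179 to 3736 CPM (median 2155) against 0.52 to 6.48 CPM (median 4.0). *Got1*, a cytosolic transaminase also used in muscle, was not called, at 349 to 801 CPM against 645 to 809 CPM, and neither was *Pgm1*.

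All 19 genes of bile acid synthesis and transport were called higher, with a median of 8.20, or 8.28 with the gene at 0 in hearts set to its lower bound. *Cyp7a1*, the rate-limiting enzyme of the classic pathway, lay at 137 to 655 CPM (median 249) in livers and had 0 reads in all 7 hearts. *Abcb11*, the export pump for bile salts, lay at 529 to 885 CPM (median 779) against 0 to 0.329 CPM (median 0.159), and *Slc10a1*, which takes bile acids up from blood, at 796 to 1033 CPM (median 870.2) against 0.0226 to 0.159 CPM (median 0.0448). *Nr0b2*, the repressor SHP, differed least, at 10.8 to 58.4 CPM (median 29.1) against 7.78 to 9.92 CPM (median 8.81) (log2 difference 1.51, SE 0.25). *Hsd3b7*, an enzyme of the sterol ring, shares 99.2% of its exon bases with Gm49388, so its log2 difference of 2.98 cannot be assigned to one gene.

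Of the genes of amino acid breakdown, 22 of 23 were called higher, with a median of 8.78. *Tdo2*, which starts the breakdown of tryptophan, lay at 802 to 1598 CPM (median 1039) in livers against 0.112 to 0.25 CPM (median 0.181) in hearts, and *Hpd*, which acts in that of tyrosine, at 1888 to 2817 CPM (median 2308) against 0.0681 to 0.291 CPM (median 0.185). The gene not called was *Sdsl*, a relative of serine dehydratase, at 5.81 to 17.1 CPM in livers and 8.17 to 9.48 CPM in hearts.

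Of 5 ketone body genes, 3 were called higher in liver and 1 lower. *Oxct1*, which lets a tissue burn ketone bodies, lay at 1.45 to 5.6 CPM (median 3.57) in livers against 803 to 1114 CPM (median 969.8) in hearts (log2 difference -7.71, SE 0.18). *Bdh1*, which interconverts the ketone bodies, was called higher in liver at 2.07, and *Acat1* was not called. Of 14 genes of fatty acid synthesis, 10 were called higher and 2 lower, with a median of 3.68. *Fasn*, the synthase itself, lay at 223 to 2116 CPM (median 1256) against 15.9 to 85.5 CPM (median 23). The lower ones were *Acacb*, the carboxylase form that controls fatty acid entry into muscle mitochondria, at -1.99, and *Pnpla3*, a lipid droplet protein, at -1.99. *Me1* and *Gpam* were not called.

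Fatty acid oxidation was divided in the same way. Of 23 genes, 4 were called higher (17.4%, against 20.2% over all genes) and 11 lower (against 27.7% over all genes), with a median of -0.89. With TMM scaling the lower count was 8. The 4 included *Cpt1a*, the liver form of the mitochondrial entry enzyme, and the peroxisomal genes *Ehhadh* and *Acaa1b*, with log2 differences of 2.69, 4.03, and 7.86. The lower ones included the mitochondrial genes *Hadhb*, at 136 to 192 CPM (median 151) in livers against 1177 to 2126 CPM (median 1574) in hearts, and *Acadl*, at 156 to 248 CPM (median 172) against 854 to 1257 CPM (median 959). All 12 mitochondrially encoded genes tested were lower in liver, with a median of -2.58, and *mt-Co1*, a subunit of cytochrome oxidase, lay at 13734 to 15585 CPM (median 14724) against 65522 to 101908 CPM (median 95331).

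Iron genes were mixed, with 6 of 10 called higher and 2 lower. *Hamp*, the iron hormone hepcidin, lay at 214 to 808 CPM (median 507) in livers. The hearts lay at 0 to 132 CPM, where KO heart replicate 4 held 132 CPM and KO+AAV heart replicate 1 held 7.86 CPM, so all livers were still above all hearts. *Tfr2* and *Tmprss6*, a sensor and a regulator of hepcidin, had log2 differences of 8.90 and 9.33. *Bmp6*, the ligand that drives hepcidin, was lower in liver, at 2.62 to 6.85 CPM (median 5.1) against 26.7 to 40.3 CPM (median 29.9) (log2 difference -2.49, SE 0.12), and so was *Hfe2*, its coreceptor hemojuvelin, which skeletal and heart muscle also express, at -1.31.

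Liver and muscle forms of the same enzyme or carrier were compared as the share of the liver form in their summed CPM per kilobase of exon. Over 22 pairs the median share of the liver form was 98.6% in livers and 3.38% in hearts. The shares of the tissues did not overlap for 21 pairs, and in 15 pairs both forms were called. The pairs were picked as liver and muscle forms, so this is a description. Single genes called higher or lower also rarely overlapped (2675 of 2759 and 3731 of 3790 did not). The liver form made up over 90% in the median liver for 17 pairs and under 10% in the median heart for 16 pairs. The pair whose shares overlapped was *Arg1* with *Arg2*, where the liver form led in both tissues at levels near the floor in heart. For glycogen phosphorylase, *Pygl* took 98.2% to 99.7% of its pair in livers and 0.282% to 0.4% in hearts. The glucose transporter *Slc2a2* took at least 98.7% of its pair with the insulin-responsive *Slc2a4* in livers and at most 0.103% in hearts.

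Some pairs differed through 1 member alone. *Ldha* was not called, at 637 to 1029.7 CPM in livers and 529 to 753 CPM in hearts, while *Ldhb*, the heart form of lactate dehydrogenase, lay at 1.4 to 6.68 CPM (median 3.33) against 986 to 1373 CPM (median 1289.6) (log2 difference -8.04, SE 0.21). The adenine nucleotide carriers were alike, with *Slc25a5* not called and *Slc25a4* at -8.89. For the *S*-adenosylmethionine synthetases the liver form *Mat1a* differed, and *Mat2a* was not called. The phosphofructokinase gene named for liver, *Pfkl*, was itself lower in liver than in heart, at 39.6 to 49.8 CPM (median 43.6) against 91.5 to 143 CPM (median 137) (log2 difference -1.54, SE 0.09), and took 46% to 50.9% of its pair with *Pfkm* in livers. *Cpt1a* was the larger form in the median heart too, at 57.6% of its pair with *Cpt1b*, whose exons overlap another gene over 81.4% of their bases.

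**Figure D3:**
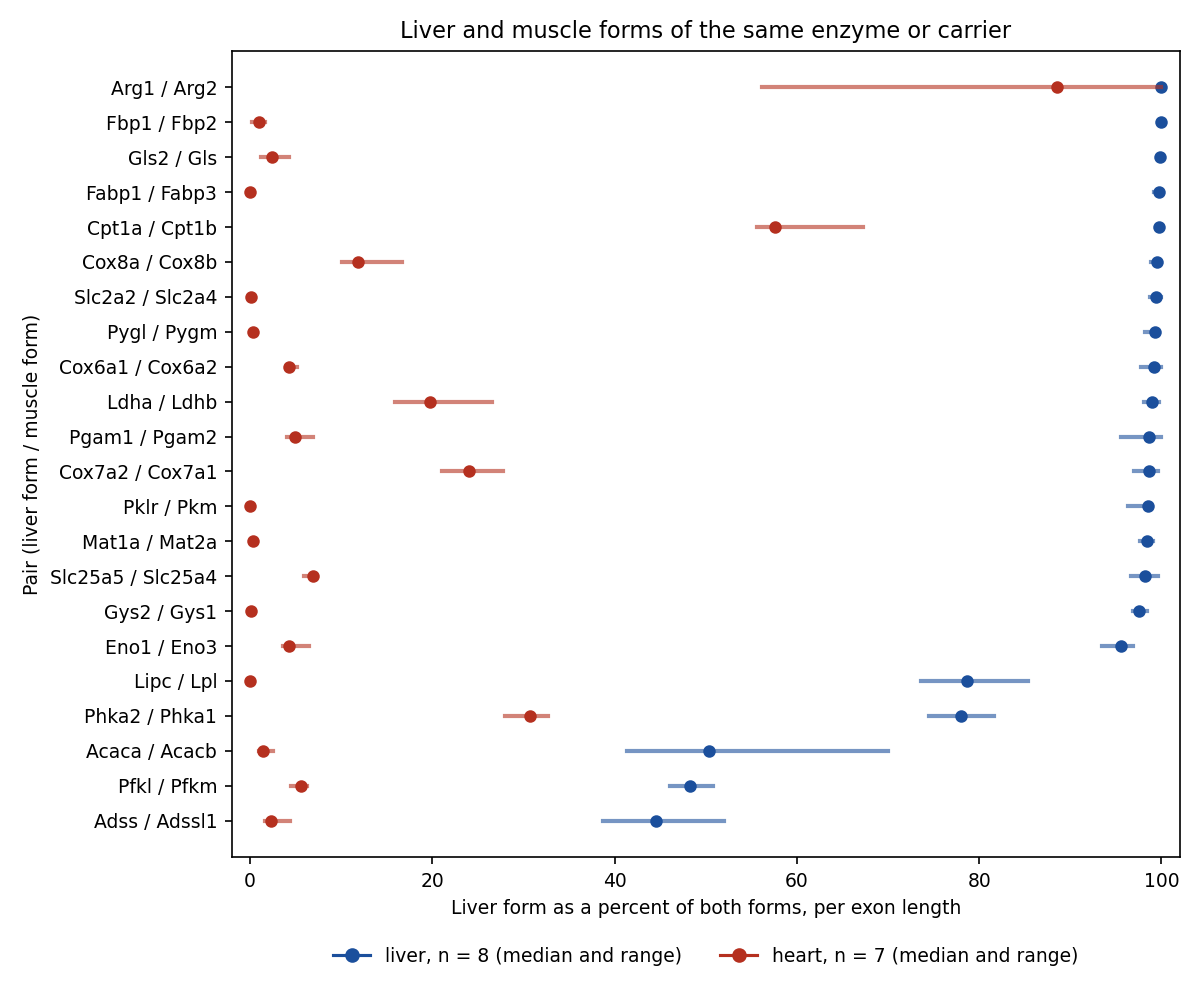
Share of the liver form (percent) in the summed CPM per kilobase of exon of each pair of liver and muscle forms, with the median as a point and the range over libraries as a line, for 8 livers (blue) and 7 hearts (red). Livers and hearts do not overlap in 21 of the 22 pairs, and the exception is *Arg1* with *Arg2*.

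Of 20 hepatocyte transcription factor genes, 17 were called higher in liver, with a median of 5.01 (5.60 with genes at 0 in hearts set to their lower bound). *Hnf4a*, a nuclear receptor at the centre of the network, lay at 551 to 807 CPM (median 604) in livers against 0.0238 to 0.204 CPM (median 0.0617) in hearts (log2 difference 9.18, SE 0.08, adjusted *P* = 2.04e-20). *Foxa1* and *Onecut1* had 0 reads in all 7 hearts and liver medians of 31 and 14.5 CPM. The forkhead genes *Foxa2* and *Foxa3* had liver medians of 37.7 and 29.1 CPM. *Cebpa*, a C/EBP factor of metabolic genes, lay at 262 to 339 CPM (median 287) against 2.2 to 7.48 CPM (median 3.77), and *Cebpb*, its relative of wider use, differed less, at 1.20, or 0.91 without the mitochondrially encoded genes and then not called. The genes not called were *Ppara*, the fatty acid receptor that heart also uses, at 33.1 to 78.4 CPM against 26.3 to 40.5 CPM, *Prox1*, at 77.6 to 169 CPM against 53.1 to 76.1 CPM, and *Nfia*, at 25.6 to 51.6 CPM against 34.3 to 53.2 CPM. *Nr1i3*, the xenobiotic receptor CAR, had a log2 difference of 7.27 and shares 74.9% of its exon bases with Tomm40l.

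In the opposite direction, all 16 cardiac transcription factor genes tested were called lower in liver (background 27.7%), with a median of -4.03. *Nkx2-5*, a homeobox factor of heart formation, lay at 0 to 0.269 CPM (median 0.102) in livers against 54.1 to 70.9 CPM (median 59.6) in hearts, and *Tbx5* at 0 to 0.428 CPM (median 0.0427) against 22.8 to 165 CPM (median 32). *Gata4* was present in both, at 17.2 to 25 CPM (median 20.2) against 105 to 129.7 CPM (median 126) (log2 difference -2.48, SE 0.09), and endothelial cells of the liver also express it.

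Hepatocytes differ along the path of blood through the lobule, and genes of both ends were called. Of the periportal genes, 11 of 12 tested were higher, with a median of 8.10, and *Cyp2f2*, a cytochrome P450 of that zone, lay at 844 to 1511 CPM (median 1057) in livers against 0 to 0.119 CPM (median 0.0617) in hearts. The gene not called, *Aldh1b1*, lay at 20.1 to 51.5 CPM in livers and 10.2 to 78.5 CPM in hearts, the highest being KO heart replicate 4. Of the pericentral genes, 13 of 14 tested were higher, with a median of 4.72. *Cyp2e1*, which oxidizes ethanol, lay at 5631 to 8911 CPM (median 6875) against 0.525 to 7.08 CPM (median 3.82). *Glul*, glutamine synthetase, confined in liver to cells at the central vein, lay at 769.7 to 1414 CPM (median 1036) against 145 to 390.0 CPM (median 202) (log2 difference 2.17, SE 0.20). *Slc22a3*, an organic cation transporter, was not called, at 9.07 to 20.2 CPM against 7.54 to 12.5 CPM. Bulk tissue does not show where in the lobule a transcript was.

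Male-biased hepatocyte genes, which depend on the pulses of growth hormone in males, were expressed in these male livers. Of 16, 15 were called higher than in heart, with a median of 7.02. *Cyp2d9* lay at 928 to 1451 CPM (median 1184), *Elovl3*, a fatty acid elongase, at 308 to 949 CPM (median 677), and *Mup20*, the urinary pheromone darcin, at 953 to 1895 CPM (median 1572). *Hsd3b5*, a steroid dehydrogenase, lay at 247 to 519 CPM in livers and had 0 reads in all hearts. *Cyp2u1* was not called. *Moxd1* spread most, from 3.66 CPM in KO liver replicate 2 to 107 CPM in KO liver replicate 1. *Cyp4a12a* lay at 26 to 391 CPM (median 123), and its near-identical copy *Cyp4a12b* at 20.1 to 79.1 CPM (median 47.1), a split that counting may set. Of 20 female-biased genes only 8 passed the filter on mean CPM, 5 called higher and 2 lower, and those that passed include genes with other roles, such as *Cyp4a14*, a fatty acid hydroxylase that fasting induces. *Cyp2b9* lay at 0.079 to 13.6 CPM in livers.

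Markers of the other cells of liver were split between the tissues. In bulk tissue, fewer cells of a type and less RNA per cell cannot be told apart. Of 13 Kupffer cell markers tested, 6 were higher and 1, *Cd163*, was lower, though not with TMM scaling, in edgeR or DESeq2, without KO heart replicate 4, or without KO liver replicate 3. *Clec4f*, a lectin of Kupffer cells, lay at 19.3 to 65.2 CPM (median 32.4) in livers against 0.0224 to 0.428 CPM (median 0.0411) in hearts (log2 difference 5.05, SE 0.22). *Vsig4* lay at 4.48 to 21.4 CPM against 0.179 to 14.1 CPM, where KO heart replicate 4 held the 14.1 CPM. Genes that macrophages of both organs share, among them *C1qa*, *Csf1r*, and *Adgre1*, were not called, with liver medians of 12.7, 16.4, and 4.31 CPM and heart medians of 22.5, 21.7, and 7.51 CPM.

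Of 12 sinusoidal endothelial markers, 7 were higher and 4 lower. *Stab2*, a scavenger receptor of the sinusoids, lay at 33.1 to 78 CPM (median 48.6) in livers against 0.271 to 0.701 CPM (median 0.428) in hearts (log2 difference 5.11, SE 0.15), while *Lyve1* and *Kdr*, which vessels of the heart also express, were lower at -1.35 and -2.59. All 12 general vascular endothelial markers were lower in liver, with a median of -3.23, and *Pecam1* lay at 5.64 to 18.4 CPM (median 13.1) against 136 to 243 CPM (median 150.3). Of 12 stellate cell markers, 7 were higher and 4 lower. *Lrat*, which stores vitamin A, lay at 7.37 to 24.4 CPM (median 18.3) against 0.1 to 0.428 CPM (median 0.157) (log2 difference 3.81, SE 0.18), and the lower ones were *Des*, *Rgs5*, *Hand2*, and *Dcn*, which cardiac cells also express. Of 13 markers of cardiac fibroblasts and smooth muscle, 11 were lower in liver. The one higher was *Fn1*, fibronectin, which hepatocytes secrete into plasma, at 1283 to 2364 CPM (median 1659) against 31.2 to 66 CPM (median 37.3).

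Cell types with few detected markers were cholangiocytes (5 of 11 markers tested, 3 higher and 1 lower), neutrophils and monocytes (3 of 12 tested, 1 lower), and lymphoid cells (2 of 14 tested, none called). Of 14 pancreatic acinar markers 1 was tested, *Cela1*, at 23.7 to 53.1 CPM (median 41.1) in livers against 0.475 to 1.76 CPM (median 0.739) in hearts, and the zymogens *Prss2* and *Cpa1* were below the filter. Of 13 skeletal muscle fiber markers 2 were tested and both were lower in liver, and of 9 lung epithelium markers 2 were tested, 1 higher and 1 lower. Of 8 adipocyte markers tested, 7 were lower in liver (4 with KO heart replicate 2 kept) and *Car3*, a carbonic anhydrase abundant in both fat and hepatocytes, was higher, at 491 to 2702 CPM (median 1166) against 0.339 to 20.3 CPM (median 6.1). Red blood cell markers were lower in liver for 5 of 6 tested, with a median of -2.88, and their summed level was 67.3 to 423 CPM in livers and 497 to 4775 CPM in hearts. *Hba-a1*, a globin gene, lay at 15.8 to 129 CPM (median 47.1) against 159 to 1703 CPM (median 614). The part of blood in the other differences was not tested.

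All 20 cardiomyocyte sarcomere genes and all 18 genes of calcium handling and excitation were lower in liver, with medians of -9.00 and -7.17. *Ryr2*, the calcium release channel, lay at 1737 to 2545 CPM (median 2029.7) in hearts against 0.0474 to 9.1 CPM (median 2.88) in livers. *Atp2a2*, the calcium pump, was also plentiful in livers, at 252 to 366 CPM (median 331) against 11482 to 19040.2 CPM (median 14474) (log2 difference -5.49, SE 0.10). The smallest sarcomere difference was that of *Csrp3*, muscle LIM protein, at 33.1 to 52.5 CPM (median 43.7) against 1159 to 1541 CPM (median 1388) (log2 difference -4.98, SE 0.09).

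Livers held a trace of sarcomere transcripts that differed between libraries. Over 17 sarcomere genes above 500 CPM in heart, the median level in a liver was 0.0139% of the heart mean in KO+AAV liver replicate 2 and 0.358% in KO+AAV liver replicate 1, with the other 6 livers between them. *Myh6* lay at 64.2, 14.9, 33.4, and 56 CPM in the KO livers and 112, 2.01, 19, and 71.4 CPM in the KO+AAV livers. The reverse trace was more even across libraries, and lay below that of 7 of the 8 livers. Over 36 secreted liver genes above 500 CPM in liver, the median level in a heart was 0.0169% to 0.0252% of the liver mean. KO heart replicate 2 held the same genes at a median of 63.0% (47.7% to 82.5%) and the 17 sarcomere genes at a median of 36.2% of the mean of the other hearts.

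Atrial genes were high in a pair of hearts. *Nppa*, which encodes atrial natriuretic peptide, held 8848 CPM in KO heart replicate 4 and 908 CPM in KO+AAV heart replicate 1, against 24.3 to 115 CPM in the other 5. It shares 61.5% of its exon bases with Gm13054. *Myl7*, the atrial light chain, held 1623 and 526 CPM in the same hearts and at most 28.7 CPM in the others. Among livers, those with the same group and number were the highest in *Nppa*, at 15.6 and 3.29 CPM, while the other 6 held at most 0.14 CPM. Of 10 atrial genes, 8 were called lower in liver and 1 higher, and without these 2 hearts 5 were lower and 2 higher, with the median moving from -3.51 to -1.59. *Bmp10*, an atrial growth factor that liver stellate cells also express, held 3073 CPM in KO heart replicate 4 and 1.58 to 8.08 CPM in livers, against at most 0.16 CPM in 5 hearts. Among the liver lists, the hepatokines fell from 14 to 12 called higher without these hearts.

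Of 23 clock genes tested, at a single time of day in mice without *Bmal1*, 14 were not called, 5 were called higher in liver and 4 lower, with a median of 0.09. The share higher was 21.7%, near the 20.2% over all genes, where 27.7% were lower, so the higher count does not set clock genes apart. With TMM scaling 8 clock genes were higher and 4 lower, and without the mitochondrially encoded genes 5 were higher and 5 lower. Those called higher included *Bhlhe40*, *Hlf*, *Rora*, and *Per2*, with log2 differences of 2.58, 2.12, 1.65, and 1.37. *Bhlhe40*, the repressor DEC1, lay at 87.7 to 302 CPM (median 164) in livers against 19.2 to 38.3 CPM (median 25.3) in hearts. *Per2*, a repressor of the core loop, lay at 28.9 to 67 CPM (median 46) against 11.9 to 25 CPM (median 16.3), and no liver overlapped a heart. No WT library stands beside these. *Nr1d1*, the repressor REV-ERBα, lay at 1.19 to 3.1 CPM (median 1.64) in livers against 7.08 to 13.1 CPM (median 10.2) in hearts (log2 difference -1.92, SE 0.16), and *Dbp*, an output factor, at 3.02 to 7.3 CPM (median 5.57) against 5.86 to 9.39 CPM (median 8.16).

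The genes lower in liver beside *Nr1d1* were *Csnk1e*, a kinase of the period proteins, *Rorb*, and *Bhlhe41*, the repressor DEC2. *Bhlhe41* lay at 0.0237 to 0.215 CPM in livers against 18.7 to 25.9 CPM (median 22.5) in hearts (log2 difference -4.39, SE 0.08), the reverse of its close relative *Bhlhe40*. The log2 differences of *Csnk1e* and *Rorb* were -2.41 and -1.98. *Clock*, the partner of BMAL1, lay at 52 to 71.6 CPM in livers and 55.5 to 81.2 CPM in hearts, and *Npas2*, its relative, at 24 to 55.4 CPM and 15.1 to 26.8 CPM, and neither was called. *Cry1* and *Cry2*, *Tef*, and *Nfil3* were not called either.

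**Figure D4:**
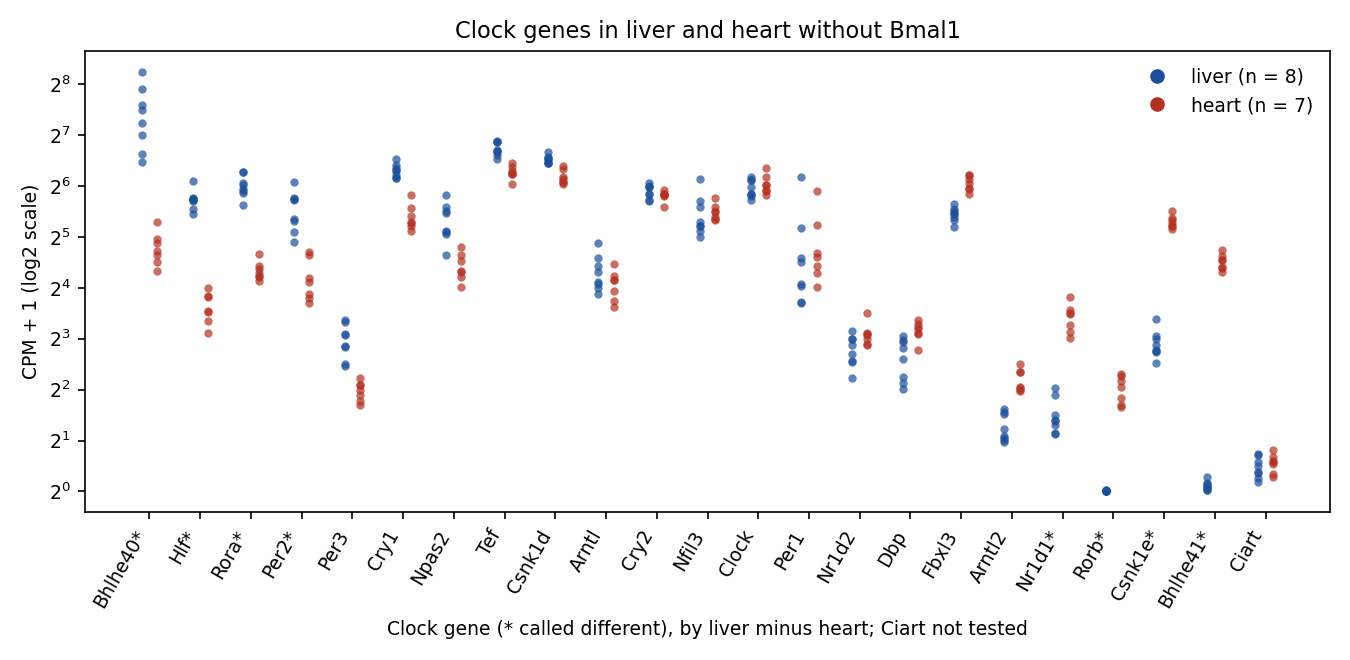
CPM + 1 (log2 axis) of 23 clock genes in 8 livers (blue) and 7 hearts (red), 1 point per library, ordered by the liver minus heart difference, with a star at genes called different. Of these 14 were not called and *Ciart* was not tested, *Bhlhe40* is highest relative to heart, and *Bhlhe41* lies near 0 in every liver.

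Of 39 cytosolic ribosomal protein genes, taken as a group that every cell uses, 4 were called higher in liver and none lower, with a median of 0.57. TMM scaling gave 7 higher, and leaving out the mitochondrially encoded genes gave 0 higher with a median of 0.26, so small differences of this size depended on the scaling.

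The 3 markers varied across the 8 livers about as much as the typical gene, while some metabolic genes varied widely. Over 7943 genes with a mean above 10 CPM, the median SD of log2(CPM + 1) across livers was 0.144 and the 95th percentile was 0.466, and the median SD of the 3 markers was 0.127. The 20 genes with the largest SD, all past 1.42, included *Cyp3a11*, *Mt2*, *Scd1*, *Cyp4a14*, and *Igfbp1* at the top. *Cyp3a11*, the main drug-metabolizing P450, held 39.9 CPM in KO liver replicate 1 and 933 to 3639.6 CPM in the other 7. *Scd1*, the desaturase that makes oleate, held 123 CPM in KO+AAV liver replicate 2 and 2757 to 11497 CPM in the others. In both genes 1 library stood apart from all the rest.

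KO+AAV liver replicate 2 lay more than 2-fold from the median of the livers in 187 of the 7943 genes, the most of any liver, and was followed by KO liver replicate 1 with 89 and KO liver replicate 2 with 63, against 17 to 51 in the other 5. KO+AAV liver replicate 2 was the lowest liver in 11 of 13 fatty acid synthesis genes above 10 CPM, and the highest in 15 of 21 beta-oxidation genes, 15 of 23 genes of amino acid breakdown, and 6 of 8 urea cycle genes. Over all 7943 genes it was the lowest liver in 23.2% and the highest in 18.8%. It also held the highest *Cyp4a14*, at 856 CPM against 12.4 to 283 CPM in the others, and the lowest *Igfbp1*, at 6.02 CPM against 71.5 to 399 CPM. Markers of other cells were low in the same library, which was the lowest liver in 7 of 8 Kupffer cell, 8 of 11 sinusoidal endothelial, 5 of 6 vascular endothelial, 3 of 6 stellate cell, and 5 of 5 red blood cell markers above 10 CPM. KO liver replicate 2 showed the opposite in lipid synthesis, as the highest liver in 11 of 13 of those genes, and was the highest in 38 of 39 ribosomal protein genes. Over all 7943 genes it was the highest liver in 22.8%. It was also the highest liver in 7 of 8 Kupffer cell, 7 of 11 sinusoidal endothelial, 5 of 6 vascular endothelial, and 5 of 6 stellate cell markers, and in none of the 5 red blood cell markers. The part of these cells in the metabolic values was not tested.

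KO liver replicate 1 differed in another way. It was the highest liver in 10 of 15 acute phase genes above 10 CPM and held 60.7 CPM of *Cxcl1*, a neutrophil chemokine, against 1.55 to 5.52 CPM in the other 7. It was the lowest in 16 of 23 genes of amino acid breakdown, 8 of 12 periportal genes, and 6 of 8 urea cycle genes. Over all 7943 genes it was the highest liver in 7.35% and the lowest in 22.8%. *Alb* was 22977 CPM there, within the range of the others. *Cish* and *Socs2*, which growth hormone induces through STAT5, were both lowest in KO+AAV liver replicate 1, at 1.35 and 2.77 CPM, against 11.7 to 66.3 CPM and 7.47 to 63.7 CPM in the others. *Mup7*, a major urinary protein, ranged from 64 CPM in KO liver replicate 2 to 1487 CPM. These patterns are descriptions of single libraries, and what sets them was not tested.

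**Figure D5:**
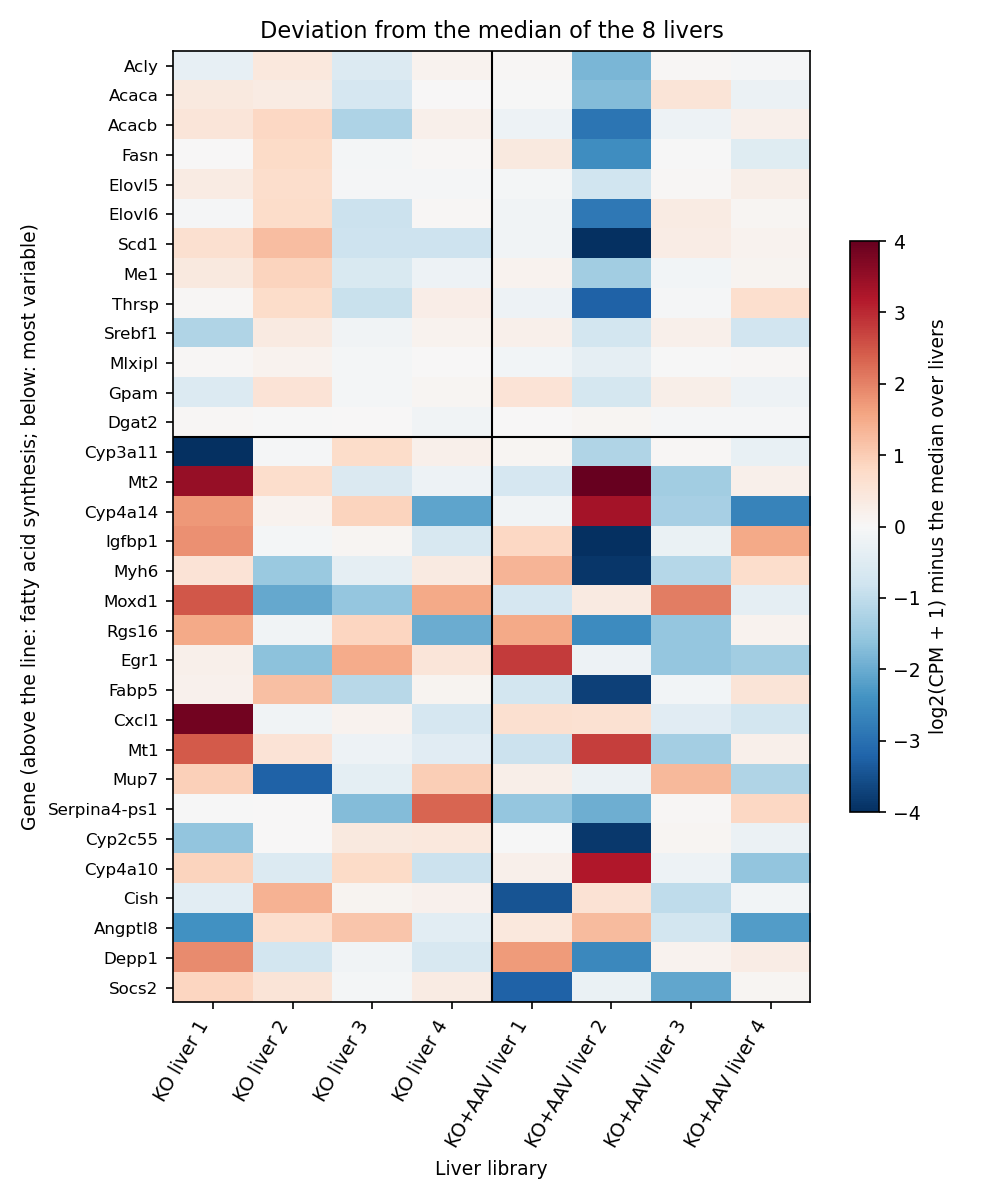
Difference from the median of the 8 livers in log2(CPM + 1), as color, for 13 fatty acid synthesis genes above 10 CPM (rows above the line, *Scd1* among them) and the other genes of the 20 with the largest SD across livers (rows below it), in each liver library (columns). Colors saturate at 4, and the palest values lie at the median: *Cyp3a11* stands apart in KO liver replicate 1, and *Scd1* and *Igfbp1* in KO+AAV liver replicate 2.

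Of the liver lists and the clock genes, 4 members differed between KO+AAV and KO livers in limma at *P* under 0.01, and no liver marker did. They were 1 of 21 clock genes tested, 1 of 10 iron genes, and 2 of 9 female-biased genes, and the other lists held none. The study applied its *P* threshold with DESeq2, so its counts are not set beside these. In limma on the 8 livers alone, 32 of 12327 genes rose (0.26%) and 29 fell (0.235%) from KO livers to KO+AAV livers at *P* under 0.01, and 341 (2.77%) passed at *P* under 0.05. No gene passed an adjusted *P* under 0.05 in limma, 0 did in edgeR (402 at *P* under 0.05), and 11 did in DESeq2 (501). The counts rested on single libraries: 19 genes were higher without KO liver replicate 1, 21 without KO liver replicate 4, and 50 without KO+AAV liver replicate 2, and 48 were lower without KO+AAV liver replicate 4. *Alb*, *Apoa1*, and *Ttr* differed between the groups by 0.00 (SE 0.21), 0.00 (SE 0.15), and -0.23 (SE 0.14) on the log2 scale. The liver minus heart difference itself was compared between KO+AAV and KO mice, a test added after the data were seen. By limma 0 of 13691 genes passed an adjusted *P* under 0.05, and 152 (1.11%) had an unadjusted *P* under 0.05.

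The 5 genes with the smallest *P* toward KO+AAV were *Hsph1*, *Gm12346*, *Ephx2*, *Hsp90aa1*, and *Dnaja1*, of which *Hsph1*, *Hsp90aa1*, and *Dnaja1* encode chaperones of the heat shock response. *Hsph1* lay at 54.5, 48.1, 53.6, and 57.6 CPM in KO livers and 71, 122, 97.6, and 101 CPM in KO+AAV livers, without overlap. It was picked by its *P* in these same livers, so the lack of overlap adds no support. The log2 difference of *Hsph1* was 0.84 (SE 0.15, adjusted *P* = 0.999), and those of *Hsp90aa1* and *Dnaja1* were 0.53 (SE 0.12, adjusted *P* = 0.999) and 0.36 (SE 0.08, adjusted *P* = 0.999) in the same limma fit. All 3 passed only the unadjusted threshold.

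The 5 genes with the smallest *P* toward KO were *Cyp2c69*, *Cda*, *Cd9*, *Rgs3*, and *Ccl9*. *Cyp2c69*, a cytochrome P450 on the female-biased list, lay at 56, 53.1, 36.9, and 79.6 CPM in KO livers and 18.3, 25.5, 17.2, and 17 CPM in KO+AAV livers (limma, log2 difference -1.45, SE 0.22, adjusted *P* = 0.999). *Cyp2c40*, a near relative that may share its reads, lay at 152, 63.2, 70.2, and 148 CPM and 37.2, 39.7, 43.7, and 39.7 CPM (limma, log2 difference -1.30, SE 0.28, adjusted *P* = 0.999). No KO+AAV liver reached a KO liver in either gene. *Cyp2c69* was picked by its *P* in these same livers and *Cyp2c40* may share its reads, so this adds no support. *Bmp6* was the third list member lower in KO+AAV livers, at 6.85, 6.48, 5.95, and 5.14 CPM against 5.06, 2.96, 2.62, and 3.64 CPM. *Arntl* was the one list member higher at *P* under 0.01 (limma, log2 difference 0.54, SE 0.13, adjusted *P* = 0.999).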

How the data were processed

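The 15 libraries were poly(A)-selected RNA-Seq libraries sequenced at one site. The submitters' processing notes name HISAT2, HTSeq, and DESeq2 with GRCm38 (mm10). Versions, annotation release, and strand setting are not given in the sources used here. The authors deposited HTSeq counts divided by DESeq2 size factors (a normalized signal, set for each tissue alone). For all genes and libraries the values returned to whole reads within 0.01 of a read. Each column was divided by its sum to give CPM. Genes with a mean above 1 CPM were tested on log2(CPM + 1) with limma 3.58.1 (intensity trend, R 4.3.3, two-sided, Benjamini-Hochberg adjustment) in 1 model of the 4 groups, and KO+AAV against KO was tested in livers alone. edgeR 4.0.16 and DESeq2 1.42.0 on the recovered reads were alternatives, as were another pseudocount, other filters, TMM, and totals without mitochondrially encoded genes. Further alternatives were KO heart replicate 2 kept, KO or KO+AAV libraries alone, a replicate block, and each library left out. Leaving out both hearts high in atrial genes, and the test of the liver minus heart difference between KO+AAV and KO, were added after seeing the data.

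Named genes were the 3 markers and *Arntl*, the 10 genes with the largest difference each way, the 15 highest per exon length in liver, the 20 most variable across livers, the 5 smallest *P* values each way for the vector, and members of 40 gene lists and 22 pairs. Some genes of these lists are not reported here. Members and lists were chosen with earlier results of these data known. The limma fits were tested on simulated data. Gene names, exon lengths, and exon overlaps came from GENCODE vM21. Intervals and floors cover counting error only. The sequences of proteins were not used here.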

Additional observations from a re-analysis of the deposited data

Results flagged for a closer look

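KO heart replicate 2, which took no part in the comparison, held 17396.1 CPM of *Alb*, 3943.3 CPM of *Apoa1*, and 2104.7 CPM of *Ttr*, against at most 4.86 CPM of any of them in the other 7 hearts.

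Within the groups of 4 libraries, 21 genes given by library, chosen after their values were seen, were checked for a single library far from the other 3 by Dixon's ratio on log2(CPM + 1), in 63 tests. Chance alone flags about 1 in 20 groups for genes chosen beforehand, or 3.1 of 63, and 8 were past the critical ratio. These genes were chosen by their values, which can raise that count, so the 8 cannot be compared with 3.1. *Nppa* was far above the others in KO liver replicate 4 (15.6 CPM) and KO+AAV liver replicate 1 (3.29 CPM), and *Myl7* was so in the same livers (2.39 and 1.75 CPM). *Bmp10* stood out in KO+AAV heart replicate 1 at 37.8 CPM, and the 3-library KO heart group was not tested. *Cyp3a11* was far below the others in KO liver replicate 1, at 39.9 CPM, and *Scd1* in KO+AAV liver replicate 2, at 123.1 CPM. *Alb* was highest in KO liver replicate 2, at 28456.5 CPM, a narrow spread in size. The causes were not tested.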

How the results depend on the processing

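For liver against heart, 92 genes with printed or ranked values were recomputed under 27 alternatives, and 87 kept their direction and call throughout. *Arntl* reversed to -0.03 without the mitochondrially encoded genes. In its exact permutation test TMM scaling gave 0.39. Genes higher ran from 2715 to 2910 and genes lower from 3592 to 3857 with 1 library left out. The lower count was 2107 with a mean above 10 CPM, where fewer genes are tested, against 3790 with a mean above 1 CPM. Left-out libraries moved the markers little, with *Alb* at 12.12 to 12.18, *Apoa1* at 12.04 to 12.10, *Ttr* at 10.81 to 11.02, and *Arntl* at 0.15 to 0.30. Keeping KO heart replicate 2 left the counts of 31 of the 40 gene lists as they were. It gave 12 periportal genes higher, 6 female-biased genes higher, and 3 ribosomal protein genes higher, with 0 Kupffer cell, 3 sinusoidal, 0 cholangiocyte, 4 adipocyte, 5 atrial, and 9 beta-oxidation genes lower.

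For KO+AAV against KO in liver, the main counts of 32 higher and 29 lower became 75 and 65 with DESeq2 and 91 and 92 with no filter, and 17 were lower with a mean above 10 CPM. With 1 library left out they ran from 19 to 50 higher and from 22 to 48 lower. The cause was not tested.

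The labels do not say that a number marks a mouse. Deviations of a liver and a heart with the same number correlated at 0.05 to 0.16, and 6 of 7 livers correlated best with their own number, a hint from the data only. Across livers the correlations of KO and KO+AAV libraries of the same number were -0.17 to -0.03. With the replicate block 13 genes were higher and 25 lower for the vector, and 2752 higher and 3859 lower for liver against heart. *Dnaja1* and *Ephx2* were then not called. Depth limits genes near the floor of 3 reads per library.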
